A study of Homo sapiens with 6 samples.

Results

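The nuclear-encoded subunits of the mitochondrial respiratory chain and of ATP synthase were compared between T24 cells given oxidized low-density lipoprotein (ox-LDL) and T24 cells given vehicle. Members were chosen by gene symbol alone: the NDUFA, NDUFB, NDUFC, NDUFS and NDUFV genes of complex I, the SDH genes of complex II, the UQCR genes and CYC1 of complex III, the numbered COX genes of complex IV, the ATP5 genes of complex V, and CYCS, which encodes cytochrome c. The rule found 80 probe sets for 80 genes, among 21448 probe sets tested, of which 17709 had a gene symbol. Of the 80, 31 belonged to complex I, 3 to complex II, 9 to complex III, 17 to complex IV and 17 to complex V, with 1 for CYCS. The other 2 match by name only: NDUFV1-DT is a divergent noncoding transcript and ATP5MF-PTCD1 a readthrough transcript. RefSeq lists 89 protein-coding genes with such symbols, and 79 of them were named on the array. The others, SDHB and UQCRFS1 among them, were not analysed here, nor were the subunits encoded by mitochondrial DNA.

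T24 is an established human bladder cancer cell line, and ox-LDL is a cholesterol-carrying plasma particle whose lipid and protein have been oxidized. The OXLDL group held 3 samples treated for 24 h with 20 µg/mL ox-LDL, and the CON group 3 samples given vehicle for 24 h. Both groups had been without serum for 12 h beforehand, with 1 array per sample. A serum content of 10% is also recorded for both groups. No label states whether the 3 samples came from separate cultures, and p-values therefore reflect a spread that may be technical. A description label speaks of siRNA against G9a and contradicts the titles, sources and treatments. EHMT2, the gene of G9a, was at 8.340, 8.258 and 8.058 on the ox-LDL arrays, against 8.005, 7.913 and 7.634 on the vehicle arrays. The groups did not overlap, but the difference of 0.37 did not pass (limma, adjusted p = 0.125). All values are log2 expression values, and all differences are ox-LDL minus vehicle on that log2 scale. The RNA came from whole cultures, so a shift in every cell and a shift in the share of cells with more of a transcript cannot be told apart.

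Of 11 urothelial and epithelial markers, 9 lay above the level of the negative control probe sets (5.09, their 95th percentile). The keratin gene KRT7 averaged 12.25 in ox-LDL cells and 11.97 in vehicle cells, while the uroplakin genes UPK1B and UPK3A lay at or below that level in both groups. The leukocyte list lay above it for 2 of 5 genes, with CD14 the highest at 7.19 in ox-LDL cells and 7.54 in vehicle cells, the endothelial list for 3 of 4 and the mesenchymal list for 5 of 6. No marker passed the test in either direction. The third vehicle array stood apart from the other 5: across probe sets it correlated with them at 0.979 to 0.988, while the others correlated with each other at 0.992 to 0.997. Its background probe sets of high GC content were at 7.82, against 7.27 to 7.37 on the other arrays. Its part in the results was not tested, and values without it are given for some members and sets.

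In the inner mitochondrial membrane, complexes I and II pass electrons from NADH and succinate to coenzyme Q, complex III passes them on to cytochrome c, and complex IV hands them to oxygen. Complexes I, III and IV pump protons, and complex V, ATP synthase, lets them back through a rotating ring of subunit c to make ATP. Most subunits are encoded in the nucleus. Known regulators of their genes include NRF1, GABPA, YY1 and the estrogen-related receptors, with the coactivator PGC-1alpha.

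Transcripts of the respiratory chain and ATP synthase mostly lay slightly higher in ox-LDL cells. Of the 80 members, 68 had a difference above 0 (85%), against 44.9% of all tested probe sets. The median difference of members was 0.19, against -0.03 over all tested probe sets. Of the members, 6 passed the test, all higher in ox-LDL cells, and 74 did not pass. Those 6 members were 7.5% of the 80, against a background of 6.77% of all tested probe sets called in either direction and 3.48% called higher. The share of calls is near the background of both directions together, and above that of calls higher. All 3 ox-LDL arrays lay above all 3 vehicle arrays for 53 members (66.2%), against 19.1% of all tested probe sets. They lay below for 4 members (5%), against 17.7%. The members are mostly abundant transcripts: 71 lay above the median level of the array, of which 65 had a difference above 0 (91.5%), against 57.5% of all probe sets above that level. Of those 71 members, 6 passed (8.45%), against 10.9% of the probe sets above that level. For 52 of the 71 all ox-LDL arrays lay above all vehicle arrays, against 3381 of the 10724 probe sets above that level. The study's own selection was at least 1.5-fold with a p at or below 0.001, with test and adjustment not stated. Read here as an unadjusted limma p, it was met by none of the 80 members and by 2.31% of all tested probe sets. An unadjusted p under 0.05 was reached by 35 members higher (43.8%) and 3 lower (3.75%), against 13.5% and 12.6% of all tested probe sets. Above the median level, 34 of 71 members were higher at that p and 1 lower, against 2271 and 1480 of 10724 probe sets.

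**Figure D1:**
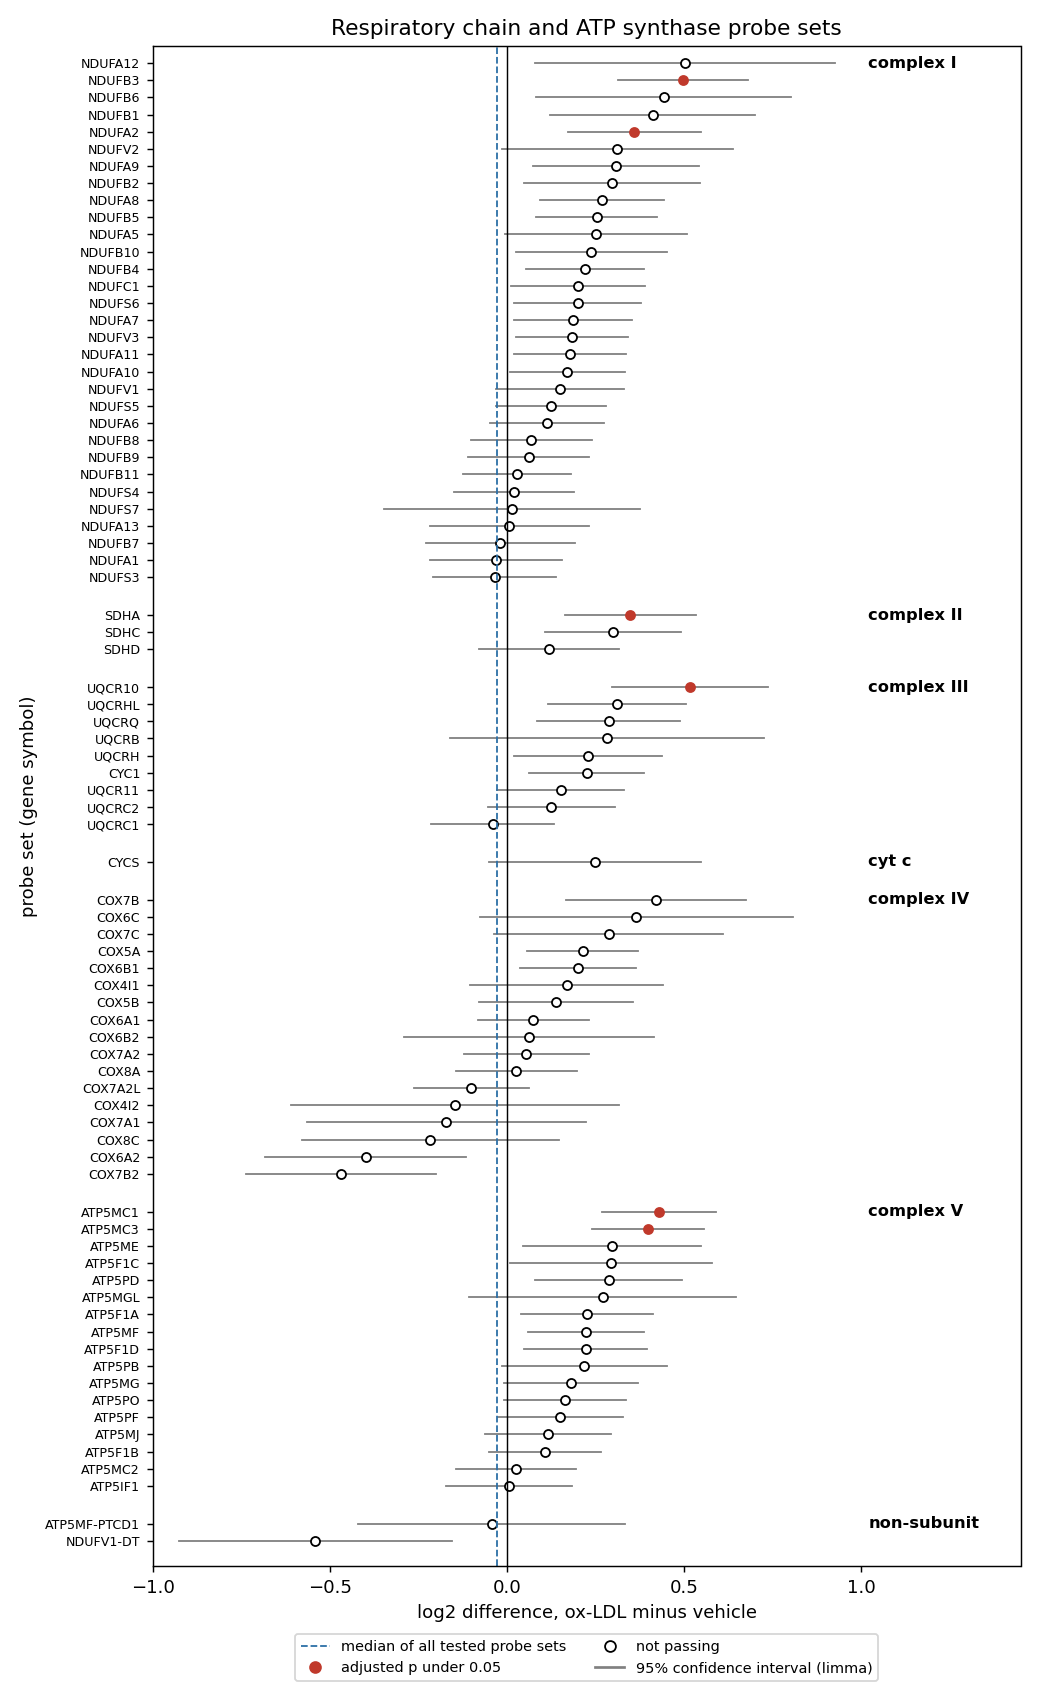
The log2 difference (ox-LDL minus vehicle, horizontal axis) is plotted for each of the 80 probe sets, grouped by complex from top to bottom, with lines for 95% confidence intervals from limma (3 arrays per group). Filled red points are the 6 that passed, and the dashed line is the median of all tested probe sets at -0.03. Most points of complexes I, II, III and V lie right of 0, while complex IV spreads to both sides, down to -0.47.

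Without the third vehicle array, 13 members passed, all higher in ox-LDL cells (16.2%), against 6.76% of all tested probe sets called higher. Among those above the median level, 12 of 71 members were called higher, against 1168 of 10724 probe sets. The 13 included the 6 called with all arrays. In that comparison 74 members lay above 0 (92.5%), against 47.9% of all probe sets, and the members' median was 0.16. The ox-LDL arrays then lay above both vehicle arrays for 59 members (73.8%), against 24% of all tested probe sets. Among those above the median level this held for 58 of 71 members, against 3909 of 10724 probe sets. The plot of differences with and without that array shows smaller differences for several members that are high with all arrays, among them NDUFA12, at 0.28 without it and 0.50 with it.

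**Figure D2:**
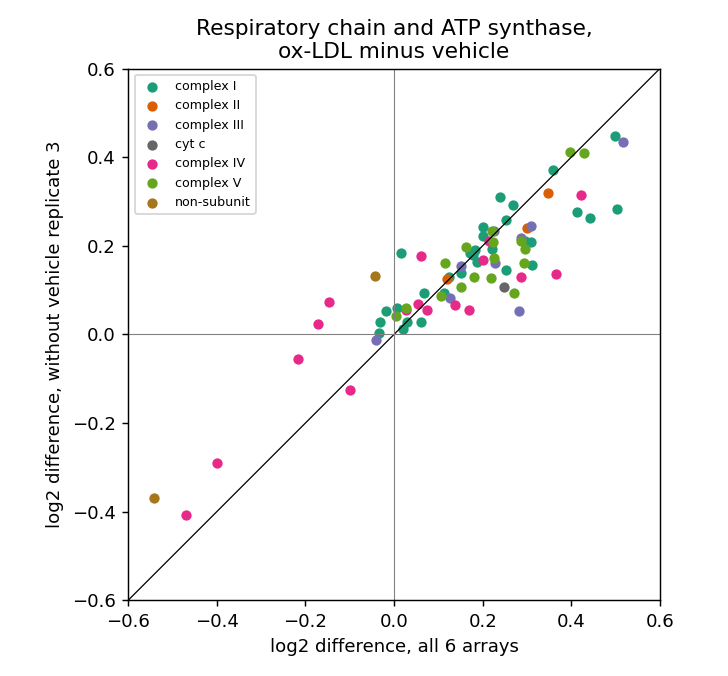
Each point is a member, with its log2 difference over all 6 arrays on the horizontal axis and without the third vehicle array on the vertical axis, coloured by complex. The diagonal marks equal values. The members above 0.4 on the horizontal axis stay above 0.2 on the vertical axis.

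The members that passed were UQCR10, NDUFB3, ATP5MC1, ATP5MC3, NDUFA2 and SDHA, measured by probe sets TC2200007035.hg.1, TC0200010438.hg.1, TC1700008178.hg.1, TC0200015012.hg.1, TC0500012248.hg.1 and TC0500006442.hg.1 in that order. All 6 calls rest on every ox-LDL array: without any 1 of these arrays, 0 members and 1.42% to 1.56% of all tested probe sets passed. Without the first vehicle array, NDUFB3 and ATP5MC1 stayed called together with COX7B2, which lay lower. Without the second vehicle array, NDUFB3, ATP5MC1 and UQCR10 did.

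**Figure D3:**
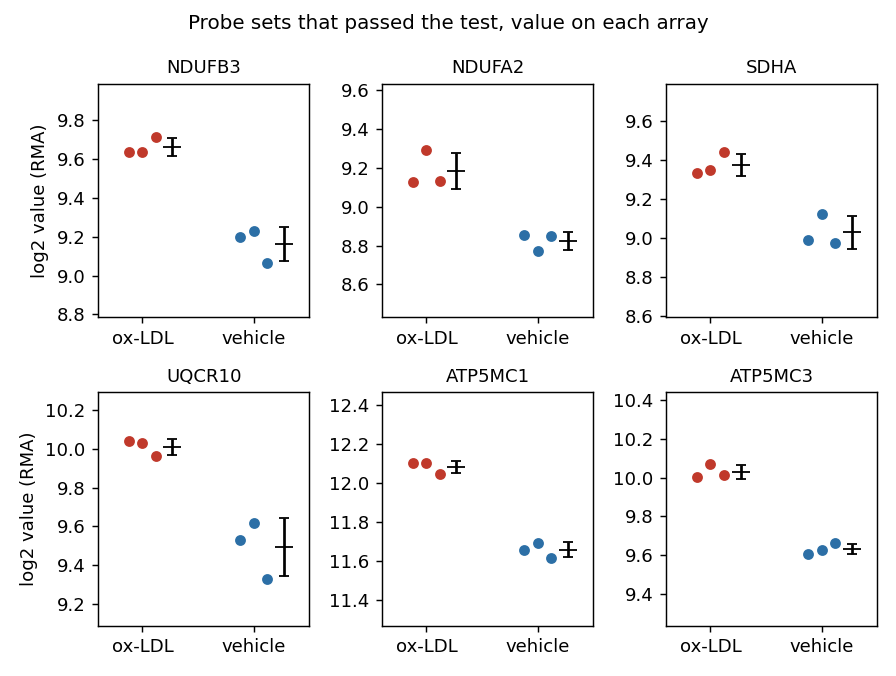
Each panel gives the log2 values of 1 member that passed (vertical axis), with red points for the 3 ox-LDL arrays and blue points for the 3 vehicle arrays, and a black mark for the group mean ± SD beside them. The ox-LDL points lie above all vehicle points in each of the 6 panels.

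To show the sequence at the start of these genes, the promoter window of the called member with the smallest p in each complex is printed from RefSeq (GRCh38.p14) as 300 bases around the annotated start, most of them before it, 5′ to 3′. Capitals mark the letters CGCANGCG, a relaxed form of the NRF1 motif that was added after the promoters had been read.
UQCR10 (chr22:29767119-29767418, plus strand): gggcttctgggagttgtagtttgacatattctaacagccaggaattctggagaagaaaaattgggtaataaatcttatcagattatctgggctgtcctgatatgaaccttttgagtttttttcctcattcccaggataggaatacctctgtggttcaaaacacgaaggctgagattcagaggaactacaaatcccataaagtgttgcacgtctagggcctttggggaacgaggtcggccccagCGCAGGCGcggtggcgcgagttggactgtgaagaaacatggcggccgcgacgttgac
NDUFB3 (chr2:201071751-201072050, plus strand): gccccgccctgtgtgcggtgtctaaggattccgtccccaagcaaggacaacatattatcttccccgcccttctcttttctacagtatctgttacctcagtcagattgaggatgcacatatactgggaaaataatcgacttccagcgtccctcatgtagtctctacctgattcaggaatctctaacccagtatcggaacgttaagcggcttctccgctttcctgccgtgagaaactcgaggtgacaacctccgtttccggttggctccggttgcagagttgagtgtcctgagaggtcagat
ATP5MC1 (chr17:48892537-48892836, plus strand): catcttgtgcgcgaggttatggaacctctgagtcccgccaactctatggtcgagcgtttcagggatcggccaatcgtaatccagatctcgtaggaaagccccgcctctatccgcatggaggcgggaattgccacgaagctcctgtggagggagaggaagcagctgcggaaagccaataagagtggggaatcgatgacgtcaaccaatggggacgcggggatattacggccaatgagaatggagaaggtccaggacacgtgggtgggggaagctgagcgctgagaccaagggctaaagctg
SDHA (chr5:218070-218369, plus strand): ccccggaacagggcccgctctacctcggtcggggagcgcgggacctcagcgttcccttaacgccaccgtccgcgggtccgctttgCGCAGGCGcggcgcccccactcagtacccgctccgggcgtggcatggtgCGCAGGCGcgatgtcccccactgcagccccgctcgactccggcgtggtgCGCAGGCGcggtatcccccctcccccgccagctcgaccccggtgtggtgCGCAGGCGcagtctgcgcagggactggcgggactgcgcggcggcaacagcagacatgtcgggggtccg
SDHA holds CGCAGGCG 4 times within its window, UQCR10 holds it 1 time, and NDUFB3 and ATP5MC1 hold none of the letters searched. NDUFA2 holds none either. Windows were listed for 64 of the 80 members and not for the other 16, ATP5MC3 among them. CGCANGCG, on both strands, was in 32.8% of the 64 windows, against 10.6% of 27305 windows of all genes. CGCATGCG, the core of the NRF1 motif and a case of CGCANGCG, was in 15.6% of member windows, against 2.19% of all. The NRF1 motif with a further G before and C after this core was in 6.25%, against 1.36%. CCGGAAGT, bound by GABPA and other ETS factors, was in 12.5%, against 4.44%. AAGATGGC, the YY1 motif, was in 14.1%, against 3.03%. TCAAGGTCA, bound by estrogen-related receptors, was in 1.56%, against 0.359%. The windows of all genes were not matched to those of the members by gene type or base composition, so the shares are a description. A match describes letters in a window and does not show that a factor binds there.

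Complex I takes electrons from NADH, and 28 of its 31 members lay above 0 (25 with cyclic loess), with a median of 0.19. In it 2 passed, or 6.45%, against 6.77% of all tested probe sets called in either direction. For 23 members all ox-LDL arrays lay above all vehicle arrays, against 19.1% of all tested probe sets. For none did they all lie below, against 17.7%. All 31 members lay above the median level of the array. There 3381 of 10724 probe sets were separated upward in this way, 2166 downward, and 10.9% passed. NDUFB3, an accessory subunit of the proton-pumping membrane arm, was at 9.63, 9.63 and 9.71 on the ox-LDL arrays, against 9.20, 9.23 and 9.06 on the vehicle arrays. The groups did not overlap, and the difference was 0.50 ± 0.08 (SE), or 1.41-fold (limma, adjusted p = 0.0146). NDUFA2, a small accessory subunit of the matrix arm, was at 9.12, 9.29 and 9.13 on the ox-LDL arrays, against 8.85, 8.77 and 8.85 on the vehicle arrays. It was higher on every ox-LDL array, by 0.36 ± 0.08 (SE), or 1.28-fold (limma, adjusted p = 0.0444). NDUFA8, a twin-cysteine accessory subunit, had the next smallest p in the complex and was at 8.73, 8.75 and 8.63 on the ox-LDL arrays, against 8.44, 8.38 and 8.48 on the vehicle arrays. Its groups did not overlap either, but its difference of 0.27 did not pass (limma, adjusted p = 0.0798).

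The other members of complex I are named after their values were seen. The 11 measured NDUFB subunits of the membrane arm had a median of 0.24 and ranged from -0.02 (NDUFB7) to 0.50 (NDUFB3). NDUFB1 and NDUFB6 differed by 0.41 and 0.44 without passing (limma, adjusted p = 0.0953 and 0.131). In both, the third vehicle array was the lowest: NDUFB6 was at 9.47, 9.56 and 9.57 on the ox-LDL arrays, against 9.27, 9.27 and 8.73 on the vehicle arrays, and its difference was 0.26 without that array. The 4 measured core subunits, which carry the flavin and iron-sulfur centres or surround them, had a median of 0.08. Among these, NDUFV2 lay at 0.31 and NDUFV1 at 0.15, while NDUFS7 and NDUFS3 lay at 0.01 and -0.03, and none passed. This order rests on the third vehicle array: without it NDUFV2 lay at 0.16, NDUFS7 at 0.18, NDUFV1 at 0.14 and NDUFS3 at 0.00, with a median of 0.15. The 16 other accessory subunits had a median of 0.19. NDUFA12 had the largest difference of the complex, 0.50, but its SE was 0.18 and it did not pass (limma, adjusted p = 0.139). It was at 8.92, 8.89 and 8.95 on the ox-LDL arrays, against 8.64, 8.63 and 7.98 on the vehicle arrays, so the wide error lies in 1 vehicle array. Without that array, 7 members of complex I passed, all higher, against 6.76% of all tested probe sets called higher. Of the probe sets above the median level, 1168 of 10724 were then called higher. NDUFA8, NDUFA12, NDUFB1, NDUFB6 and NDUFB10 then passed beside NDUFB3 and NDUFA2.

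Complex II, succinate dehydrogenase, also belongs to the tricarboxylic acid cycle. SDHA, its flavin-bearing catalytic subunit, was at 9.34, 9.35 and 9.44 on the ox-LDL arrays, against 8.99, 9.12 and 8.97 on the vehicle arrays. It was higher by 0.35 ± 0.08 (SE), or 1.27-fold (limma, adjusted p = 0.0472), with no overlap of the groups. The genome holds near-identical SDHA pseudogenes, so the value may include their signal. SDHC and SDHD anchor the complex in the membrane. SDHC was at 9.95, 10.04 and 9.99 on the ox-LDL arrays, against 9.76, 9.75 and 9.57 on the vehicle arrays, a difference of 0.30 that did not pass (limma, adjusted p = 0.0777). SDHD was at 9.72, 9.64 and 9.60 on the ox-LDL arrays, against 9.64, 9.42 and 9.55 on the vehicle arrays, so its groups overlapped.

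Complex III had a median of 0.23 (0.16 without the third vehicle array), with 8 of 9 members above 0. In the same number all ox-LDL arrays lay above all vehicle arrays, against 19.1% of all tested probe sets. Above the median level of the array, where 8 of the 9 lay, this held for 3381 of 10724 probe sets. UQCR10, a small subunit of the complex, had the largest difference above 0 of the 80 members. It was at 10.04, 10.03 and 9.96 on the ox-LDL arrays, against 9.53, 9.62 and 9.33 on the vehicle arrays, higher by 0.52 ± 0.09 (SE), or 1.43-fold (limma, adjusted p = 0.0245). Without the third vehicle array the difference was 0.43. UQCRQ, which binds next to cytochrome b, differed by 0.29 (limma, adjusted p = 0.0947) and CYC1, cytochrome c1, by 0.22 (limma, adjusted p = 0.103). UQCRH, the hinge protein between cytochrome c1 and cytochrome c, and its near-identical copy UQCRHL differed by 0.23 and 0.31. Their probes may share signal, so the split between these 2 genes is uncertain, and neither passed (limma, adjusted p = 0.162 and 0.0735). UQCRHL passed without the third vehicle array, with a difference of 0.24 (limma, adjusted p = 0.0428). The core proteins UQCRC2 and UQCRC1, named after their values were seen, lay at 0.13 and -0.04, and UQCRC2 at 0.08 without the third vehicle array. CYCS, the carrier between complexes III and IV, was at 10.91, 10.93 and 10.96 on the ox-LDL arrays, against 10.78, 10.87 and 10.40 on the vehicle arrays. Its difference of 0.25 did not pass (limma, adjusted p = 0.258), and it was 0.11 without the third vehicle array.

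Complex IV, cytochrome c oxidase, had members on both sides of 0; no test was made between complexes. Its median was 0.06, 11 of 17 lay above 0, and 0 passed by limma; 3 of 17 reached an unadjusted p under 0.05 higher and 2 lower, and an ordinary t statistic called 1. Over all tested probe sets the unadjusted shares were 13.5% and 12.6%. Several of its subunits exist as a common form and a form known mainly from particular tissues such as muscle, lung or testis. The 10 measured common forms all lay above 0, with a median of 0.18, although cyclic loess turned COX7A2 and COX8A below 0. Without the third vehicle array all 10 lay above 0 with a median of 0.10. COX7B, a small common subunit, was the common form nearest to passing (limma, adjusted p = 0.0658), at 10.68, 10.71 and 10.69 on the ox-LDL arrays, against 10.32, 10.44 and 10.06 on the vehicle arrays. It passed without the third vehicle array, with a difference of 0.31, against 0.42 with all arrays. COX4I1, the common form of its largest nuclear-encoded subunit, differed by 0.17 (0.06 without the third vehicle array), COX6B1 by 0.20, COX6A1 by 0.07, COX7A2 by 0.05 and COX8A by 0.03.

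Of the 6 measured tissue-restricted forms, 1 lay above 0 and the median was -0.19. Their median level was 6.19, against 10.37 for the common forms and 7.13 for all tested probe sets. The share above 0 differed with level: 44.9% of all tested probe sets, against 57.5% of those above the median level. The part of level in the contrast between the forms was not tested. COX7B2, known from testis, was at 3.388, 3.431 and 3.416 on the ox-LDL arrays, against 3.637, 4.002 and 4.002 on the vehicle arrays. Both groups were below the level of the negative controls, and its difference of -0.47 did not pass (limma, adjusted p = 0.0571). COX6A2, the heart and muscle form of COX6A1, was at 8.185, 8.247 and 8.003 on the ox-LDL arrays, against 8.463, 8.406 and 8.764 on the vehicle arrays. The groups did not overlap, and the difference of -0.40 did not pass (limma, adjusted p = 0.0977). The other 4 were COX8C at -0.22, COX7A1 at -0.17, COX4I2 at -0.15 and COX6B2 at 0.06, each with overlapping groups and none passing. In COX8C, COX7A1 and COX4I2 the third vehicle array was the highest. Without it COX8C lay at -0.05, COX7A1 at 0.02, COX4I2 at 0.07 and COX6B2 at 0.18, and the median of the 6 forms was -0.02, with 3 above 0. COX7A2L, a factor that helps join complexes III and IV into supercomplexes, lay at -0.10 with no overlap of the groups and did not pass (limma, adjusted p = 0.380). COXFA4 and COXFA4L2, current symbols of the genes once called NDUFA4 and NDUFA4L2, are outside the rule. They differed by 0.17 and -0.20, and neither passed (limma, adjusted p = 0.235 and 0.350).

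Complex V had a median of 0.22 (0.16 without the third vehicle array) and all 17 members above 0. Cyclic loess, however, put ATP5MC2 and ATP5IF1 below 0, and a second quantile normalization put ATP5IF1 there. In complex V 2 members passed, both encoding subunit c of the rotating ring. They were 11.8% of the complex, against 6.77% of all tested probe sets. Above the median level of the array, where 16 of the 17 lay, 10.9% of probe sets passed. ATP5MC1 was at 12.11, 12.10 and 12.05 on the ox-LDL arrays, against 11.66, 11.69 and 11.62 on the vehicle arrays. Its difference was 0.43 ± 0.07 (SE), or 1.35-fold (limma, adjusted p = 0.0156). ATP5MC3 was at 10.00, 10.07 and 10.02 on the ox-LDL arrays, against 9.61, 9.62 and 9.66 on the vehicle arrays. It was higher by 0.40 ± 0.07 (SE), or 1.32-fold (limma, adjusted p = 0.0192). Neither gene's groups overlapped, and both differences were 0.41 without the third vehicle array.

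ATP5MC2 is the other gene of subunit c, and the mature protein made from all ATP5MC genes is the same. It was at 11.61, 11.70 and 11.66 on the ox-LDL arrays, against 11.58, 11.61 and 11.70 on the vehicle arrays. The groups overlapped, and the difference of 0.03 (95% confidence interval from -0.14 to 0.20) did not pass (limma, adjusted p = 0.837). The intervals of ATP5MC1 (0.27 to 0.59) and ATP5MC3 (0.24 to 0.56) lie above that of ATP5MC2, but the difference between the genes was not tested. ATP5PD, of the peripheral stalk that holds the catalytic head in place, had the next smallest p in the complex. It was at 11.04, 11.03 and 11.05 on the ox-LDL arrays, against 10.81, 10.85 and 10.60 on the vehicle arrays, a difference of 0.29 (limma, adjusted p = 0.102). The further members of complex V are named after their values were seen. The 4 measured subunits of the catalytic F1 head had a median of 0.22 and a range from 0.11 (ATP5F1B) to 0.29 (ATP5F1C, 0.16 without the third vehicle array), and the 4 of the peripheral stalk had a median of 0.19. In all 8 of these the ox-LDL arrays lay above the vehicle arrays, against 19.1% of all tested probe sets, and none passed. Of the probe sets above the median level, 3381 of 10724 were separated in this way. ATP5IF1, the inhibitor that blocks ATP hydrolysis by the enzyme, differed by 0.00, with a 95% confidence interval from -0.17 to 0.18. ATP5MGL and ATP5MG, and ATP5MF and its readthrough with PTCD1, share sequence, so their split is uncertain. ATP5MF-PTCD1 differed by -0.04 and NDUFV1-DT, which lay below the negative control level, by -0.54, and neither passed.

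The level of the members was also read array by array, as each value minus the mean of that probe set over the 6 arrays. The median of these deviations over the 80 members was 0.10, 0.10 and 0.08 on the ox-LDL arrays, against -0.07, -0.05 and -0.10 on the vehicle arrays. Over all tested probe sets it was -0.01 on each ox-LDL array, against 0.00, 0.00 and 0.04 on the vehicle arrays. The members' median thus lay above 0 on each ox-LDL array and below 0 on each vehicle array. The third vehicle array was the lowest of the 6 for 39 of the 80 members (48.8%), against 28.3% of all tested probe sets. It was also the highest for 14 members. By complex, its median deviation was -0.23 in complex II, -0.25 in complex III and -0.17 in complex V, below the other vehicle arrays, whose lowest values there were -0.10, -0.10 and -0.07. In complex I the vehicle arrays lay at -0.09, -0.05 and -0.09. In complex IV they lay at -0.042, -0.022 and -0.00063, with the third vehicle array the highest. Among the 17 members of complex IV, that array was the lowest of the 6 for 7 and the highest for 5.

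**Figure D4:**
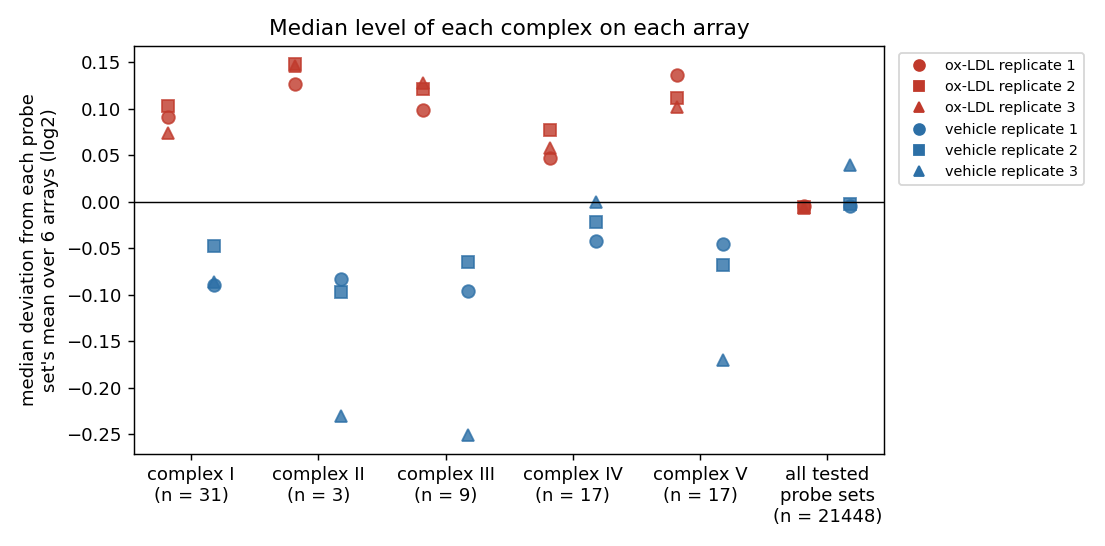
For each complex and for all tested probe sets (horizontal axis), the median deviation of its probe sets from their means over the 6 arrays (log2, vertical axis) is plotted for each array, ox-LDL in red and vehicle in blue, with a symbol per replicate. The ox-LDL medians lie above the vehicle medians in every complex, and replicate 3 of the vehicle arrays is the lowest in complexes II, III and V.

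Genes that assemble the complexes or work beside them were counted in the same way. Assembly factors help build the complexes without being part of them. Of 49 measured, 44 lay above 0, the median was 0.17, and 4 passed, all higher in ox-LDL cells (8.16% of the list). Of all tested probe sets, 44.9% lay above 0, 6.77% passed in either direction and 3.48% passed higher. Of the probe sets above the median level, where 43 of the 49 lay, 57.5% lay above 0 and 10.9% passed. NDUFAF4, a factor for complex I, was at 8.46, 8.41 and 8.39 on the ox-LDL arrays, against 8.04, 7.90 and 7.93 on the vehicle arrays, higher by 0.47 (limma, adjusted p = 0.0156). UQCC2, needed for cytochrome b of complex III, was at 8.08, 8.10 and 7.97 on the ox-LDL arrays, against 7.48, 7.69 and 7.69 on the vehicle arrays (limma, adjusted p = 0.0376). SDHAF3, a factor for the iron-sulfur subunit of complex II, was higher by 0.60 (limma, adjusted p = 0.0411). ATPAF1, a factor for the F1 head and named after its value was seen, was higher by 0.54 (limma, adjusted p = 0.0433). None of the 4 had overlapping groups, and 9 of the 49 assembly factors passed without the third vehicle array, all higher, against 6.76% of all tested probe sets. Of the probe sets above the median level, 1168 of 10724 were then called higher.

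Regulators of mitochondrial biogenesis did not pass by limma in either direction: 0 of 18 did, 14 lay above 0, and 3 reached an unadjusted p under 0.05, all higher, while an ordinary t statistic called 1. Of all tested probe sets, 13.5% were higher at that unadjusted p and 44.9% lay above 0. Without the third vehicle array 2 of the list passed, TWNK and MTERF1 (limma, adjusted p = 0.0389 and 0.0329). PPARGC1A, which encodes PGC-1alpha, lay at 0.10, NRF1 at 0.09, GABPA at 0.18 (0.0094 without the third vehicle array) and TFAM, the packaging and transcription factor of mitochondrial DNA, at 0.15. NRF1 and PPARGC1A changed sign when single arrays were left out, and NRF1 also with array weights. The smallest p in this list belonged to TWNK, the mitochondrial helicase, at 0.25, POLG2, a subunit of the mitochondrial DNA polymerase, at 0.22, and MTERF1, a mitochondrial transcription termination factor, at 0.75 ± 0.31 (SE). MTERF1 was at 7.232, 7.277 and 7.345 on the ox-LDL arrays, against 7.003, 6.857 and 5.735 on the vehicle arrays, with the third vehicle array far below the other two. Its difference was 0.35 without that array.

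Enzymes of the tricarboxylic acid cycle other than succinate dehydrogenase had a median of 0.10, with 14 of 15 above 0. None passed by limma or by an ordinary t statistic, and 4 reached an unadjusted p under 0.05, all higher, against 13.5% of all tested probe sets. All 15 lay above the median level, where 2271 of 10724 probe sets were higher at that p. The succinyl-CoA ligase subunits SUCLG2 and SUCLA2 differed by 0.26 and 0.36 (SUCLA2 by 0.24 without the third vehicle array), and IDH3B, of isocitrate dehydrogenase, by 0.21. In the synthesis of coenzyme Q, the electron carrier between the complexes, 7 of 11 genes lay above 0 (63.6%), against 44.9% of all tested probe sets. Of the 11, 1 passed (9.09%), against 6.77% of all tested probe sets and 10.9% of those above the median level. This was PDSS1, which makes the side chain of coenzyme Q, at 9.03, 9.05 and 8.95 on the ox-LDL arrays, against 8.38, 8.38 and 8.13 on the vehicle arrays. It was higher by 0.71 ± 0.09 (SE), or 1.63-fold (limma, adjusted p = 0.00865). COQ3 and COQ4 differed by 0.58 and -0.20 without passing. Cytosolic ribosomal protein genes, another set of short and abundant transcripts, lay above 0 for 45 of 54, but with a median of 0.06. Of the 54, 1 passed (1.85%), against 6.77% of all tested probe sets. That 1 was RPL26L1, higher by 0.43 (limma, adjusted p = 0.0180). RPS26 and RPL7L1, next by p, lay at 0.19 and 0.34 without passing, and RPL7L1 at 0.17 without the third vehicle array. With all arrays, the share of respiratory chain and ATP synthase members above 0, 85%, was near that of the ribosomal protein genes, 83.3%. The medians were 0.19 and 0.06. Without the third vehicle array these shares were 92.5% and 77.8%, and the medians 0.16 and 0.03.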

How the data were processed

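Gene expression was measured on 6 single-colour arrays of T24 cells, 3 given ox-LDL and 3 given vehicle. The deposited values are on the log2 scale, as their range shows, and the submitters' processing notes name RMA (robust multi-array average) (version, settings and genome build: not given in the sources used here). RMA makes arrays alike in their overall distribution, so it hides a change in RNA content of a cell, and it understates differences of dim genes. Per the labels' protocols, biotinylated cDNA was made from 500 ng of total RNA.

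Of 24350 probe sets, 2902 controls were left out and 21448 tested. A table of the platform's annotation gave 1 symbol for 17709, none for 3739 and several for 0. All 80 member gene numbers were found in RefSeq. Groups were taken from the sample titles. A limma model (lmFit and eBayes, limma 3.58.1, R 4.3.3) of ox-LDL minus vehicle gave two-sided p-values. They were adjusted over all 21448 after Benjamini and Hochberg and called under 0.05. Figures were drawn with matplotlib 3.10.9. The fit was tested on simulated data with changes of 1.5-fold or more, larger than the difference of any member. It therefore does not show how often differences as small as theirs are found. The number of arrays limits the precision. The members, lists and tests were chosen with earlier results of these data known.

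Genes are named by this rule: members that passed, the 3 members with the smallest p in each complex, the 3 smallest p in each list of other genes, and, whatever their values, CYCS, CYC1, ATP5IF1, isoform genes, PPARGC1A, NRF1, GABPA, TFAM and EHMT2; others are said to be named after their values were seen. Same-numbered ox-LDL and vehicle arrays deviated together by correlations of -0.01, 0.03 and 0.02 across probe sets, so the numbers were not treated as pairs. Alternatives were other array scalings, a filter at the median level, other variance models, array weights, other thresholds, the replicate number as a block and leaving out each array.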

Additional observations from a re-analysis of the deposited data

How the results depend on the processing

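Counts below are probe sets passing. With array weights the third vehicle array had a weight of 0.149. Over all tested probe sets, 1451 with the main setting became 2608 when only those above the median level were tested, 2649 with an intensity trend and robust fit, 3962 with array weights, 382 at adjusted p under 0.01, 2837 at adjusted p under 0.1, and 305 to 2670 when each array was left out in turn. For the 80 members (6), these settings gave 24, 28, 28, 0, 16 and 0 to 13. For complex I (2) they gave 9, 10, 13, 0, 5 and 0 to 7. For complex II (1) they gave 2, 2, 2, 0, 2 and 0 to 1. For complex III (1) they gave 3, 3, 4, 0, 3 and 0 to 2. For complex IV (0) the first 3 settings gave 4, 4 and 3, adjusted p under 0.1 gave 3 and leaving out arrays 0 to 1. For complex V (2) the first 4 gave 6, 9, 5 and 0, and leaving out arrays 0 to 2. For the assembly factors (4) all 6 gave 13, 14, 16, 0, 11 and 0 to 9. For the biogenesis regulators (0) the first 3 gave 1, 1 and 1, and leaving out arrays 0 to 2. For the tricarboxylic acid cycle (0) the first 3 gave 2, 2 and 2. For coenzyme Q synthesis (1), the filter at the median level gave 3, adjusted p under 0.1 gave 2, and leaving out arrays 0 to 1. For the ribosomal proteins (1) the first 4 gave 2, 5, 2 and 0, and leaving out arrays 0 to 1. The filter at the median level leaves 71 members tested. With the replicate block, 550 of all probe sets passed, with 0 members and 1 assembly factor. It left 0 in each of complexes I, II, III and V and in the ribosomal proteins. The main fit did not treat the replicate numbers as pairs, and whether they pair the samples was not settled. A second quantile normalization and cyclic loess left 1 call in complex I and 0 in complex II, since NDUFA2 and SDHA were lost, and the second quantile normalization left 2 assembly factors. An ordinary t statistic called 0 in complex II, 1 in complex IV, 1 biogenesis regulator and 4 ribosomal proteins; of the 6 members it kept NDUFB3, ATP5MC1 and ATP5MC3.

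The count of members above 0 and their median were given alternatives chosen after seeing the data. The median (0.19) was 0.22 with equal array medians, 0.16 with a second quantile normalization, 0.14 with cyclic loess, 0.16 with array weights and 0.16 to 0.20 with arrays left out. The count of members above 0 (68) was 62 with cyclic loess. Some small differences changed sign. ATP5IF1 was at -0.021 with a second quantile normalization, -0.054 with cyclic loess and -0.018 to 0.042 with arrays left out. COX4I2 was at 0.029 with array weights and -0.27 to 0.073 with arrays left out. Cyclic loess put COX7A2 at -0.0086, COX8A at -0.016 and ATP5MC2 at -0.018. NRF1 was at -0.047 with array weights. With arrays left out, COX8A ranged from -0.0055 to 0.056, NRF1 from -0.018 to 0.20, COX6B2 from -0.064 to 0.18, COX7A1 from -0.28 to 0.023 and PPARGC1A from -0.074 to 0.23. The cause of these changes was not tested.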
